A study of Caenorhabditis elegans with 2 samples.

Results

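The regions described here are 1369 autosomal binding sites of eGFP-tagged CES-1 whose summits lay in distal intergenic sequence of Caenorhabditis elegans. A summit, the highest point of a peak, was kept when it lay on 1 of the 5 autosomes, outside every annotated protein-coding gene body, and outside the window from 1000 bp upstream to 200 bp downstream of any protein-coding 5′ end. The rule used position alone. Each entry of the peak list has its own summit and counts as a site, and entries can share the same peak boundaries. The 1369 summits were 28.2% (exact 95% interval 26.97 to 29.5) of the 4848 autosomal summits in the thresholded list. That list held 6290 entries in all. Of the other autosomal summits, 2308 lay in the promoter window, 1034 in introns and 137 in exons.

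The sites were mapped by chromatin immunoprecipitation and sequencing (ChIP-seq) in mixed-stage embryos, taken as whole organisms of both sexes. The strain was OP174. It is mutant for unc-119 (allele ed3) and carries wgIs174, an insertion that supplies both ces-1 fused to TY1, EGFP and FLAG tags and an unc-119 copy. Both libraries, the 2 biological replicates, came from this strain, so the data hold no second genotype, stage or treatment to compare. All cell types of the embryo contribute to each library, and the antibody label names only the target. No expression data were used here, so neither the tissue nor the presence of the tagged protein could be checked against marker genes.

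As background, CES-1 belongs to the Snail family of zinc finger proteins, which regulate transcription. In C. elegans it is known for controlling the death of the sister cells of the NSM neurons and the asymmetric division that makes them, and Snail factors of other animals bind E-box sequences, often as repressors. Most intergenic stretches of the C. elegans genome are short, and regulatory elements are commonly found close to gene starts or in introns. Sites farther from gene starts can belong to long upstream regions of developmental and neuronal genes, or to genes that make no protein.

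The sequences at the summits of the 5 strongest sites on chromosomes II to V are shown first, as examples. Their G and C content ran from 35.6% at wrm-1 to 46.5% at sqv-6. Each is 101 bases of the plus strand of WBcel235 (ce11) from RefSeq, centred on the summit and named for a flanking gene. Capitals mark GAGAGA and GACGCA, searched on both strands and so also as TCTCTC and TGCGTC. The summit by F54F12.1 lay at chrIII:13061204-13061304, that by sqv-6 at chrV:966321-966421, that by aptf-4 at chrII:8589411-8589511, that by hil-7 at chrIV:6648707-6648807 and that by wrm-1 at chrIII:5720431-5720531.
F54F12.1: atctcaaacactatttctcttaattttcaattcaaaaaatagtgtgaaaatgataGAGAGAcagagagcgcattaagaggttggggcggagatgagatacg
sqv-6: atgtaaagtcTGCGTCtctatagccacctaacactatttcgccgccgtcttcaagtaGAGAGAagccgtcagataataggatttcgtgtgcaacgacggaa
aptf-4: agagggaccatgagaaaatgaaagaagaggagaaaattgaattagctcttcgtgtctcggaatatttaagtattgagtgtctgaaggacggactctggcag
hil-7: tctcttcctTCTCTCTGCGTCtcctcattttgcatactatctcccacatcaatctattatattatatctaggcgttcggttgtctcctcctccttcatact
wrm-1: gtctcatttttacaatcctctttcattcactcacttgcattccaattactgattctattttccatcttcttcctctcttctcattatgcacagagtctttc
GAGAGA was present at 3 of these 5 summits and GACGCA at 2, both of which also held GAGAGA. The Snail-type E-box CAGGTG was present at none of the 5.

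The strongest distal site had a pooled signal of 1155, with 549.8 in replicate 1 and 605.2 in replicate 2. It lay between the divergent starts of F54F12.1, 5812 bp away, and Y39E4B.6, 9502 bp away. The next lay 1582 bp upstream of sqv-6, which encodes an enzyme of glycosaminoglycan synthesis, with a signal of 1044 (475.4 and 570.4 in replicates 1 and 2). Signals are given in the peak caller's units, as deposited by the authors, and their scale is not stated. Both summits were strong in both replicates and lay between genes that start away from each other.

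Several of the other strongest sites flanked genes of known developmental roles. A summit with a signal of 1034 (455.4 and 577.2) lay 1523 bp upstream of aptf-4, which encodes an AP-2 family transcription factor. One with a signal of 930.9 (446.6 and 518.0) lay 2369 bp upstream of wrm-1, a beta-catenin gene of Wnt asymmetry signalling. One with a signal of 913.1 (377.9 and 533.9) lay 1095 bp upstream of sor-1, a gene of Hox repression, and so only just outside the promoter window. The Ras gene let-60 had a summit 1077 bp upstream with a signal of 870.9 (387.6 and 485.6). The signal was higher in replicate 2 than in replicate 1 at each of these summits.

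At some of the strongest sites the nearest flanking gene end was a 3′ end. A summit with a signal of 942.9 (359.8 and 583.6) lay 1785 bp past the 3′ end of the linker histone gene hil-7 and 9224 bp upstream of C01B10.11. Another with a signal of 889.8 (423.2 and 462.5) lay 95 bp past the 3′ end of the myotubularin gene mtm-3 and 3407 bp upstream of the adenylyl cyclase gene acy-3. One more, with a signal of 731.0 (337.5 and 394.9), lay 143 bp past the 3′ end of C13B4.1 and 5295 bp past that of dmsr-6, a gene of a peptide-receptor family. It was the only one of the 20 strongest that lay past the 3′ ends of both flanking genes.

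The remaining sites among the 20 strongest had signals from 704.5 to 1006. They flanked rps-25 (ribosomal protein), K10G9.2, C16D9.6, ins-13 (insulin-like peptide), ceh-58 (homeobox), marc-4, Y47A7.2, T28D6.4 and zfh-2 (zinc finger homeobox), the last with 3 of them. A match within 100 bp was present in both replicate lists for 19 of the 20. The exception lay 951 bp past the 3′ end of ins-13, with a signal of 762.7 in the pooled list and 390.9 in replicate 1 and no match in replicate 2. A second summit 209 bp away, with the same peak boundaries, had a signal of 438.1 and was present in both replicates (203.5 and 368.4).

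Over all 1369 sites, signal ran from 58.7 to 1155, with quartiles of 80.4, 119.6 and 199.96. Most values lay in the lower part of this range. The median was 124.4 at promoter-window summits, 116.9 at intronic and 89.98 at exonic ones, and the middle ranges of the first 2 of these overlapped that of the distal sites (85.6 to 203.9 and 80.3 to 191.4). Distal sites supplied 22 of the autosomal summits among the 100 strongest peaks (31.0%) and 111 among the 500 strongest (28.4%), against 28.2% of all autosomal summits. Their share of the strongest peaks was close to their share of the list.

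Agreement between the replicates was close for strong sites and looser for weak ones. A summit within 100 bp was found in both replicate lists for 1290 of the 1369 sites (94.2%, exact 95% interval 92.9 to 95.4). A further 32 had a match in replicate 1 alone, 47 in replicate 2 alone and 0 in neither. The share in both was 94.7% at promoter-window summits and 94.1% at intronic ones, within the interval. Over the sites matched in each list, replicate 1 had a median signal of 58.6 and replicate 2 of 68.9. Among the 1290, the median log2 ratio of replicate 2 to replicate 1 was 0.20 (SD 0.56). On the log2 scale Pearson's r across these sites was 0.83 and Spearman's rho 0.83. Both describe sites of the same 2 libraries, not independent samples. The sites came from a list thresholded on how well peaks repeat between these replicates, so high agreement was in part built in. Within 2-fold of the median ratio lay 92.1% of the 1290 sites.

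When the sites were ranked by pooled signal and divided into 5 equal groups, 99.6% of the strongest 20% (224.0 to 1155) and 85.0% of the weakest 20% (58.7 to 74.8) were found in both replicates. The SD of the log2 ratio was 0.29 in the strongest 20% and 0.79 in the weakest 20%. Signals of single weak sites are accordingly imprecise.

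**Figure D1:**
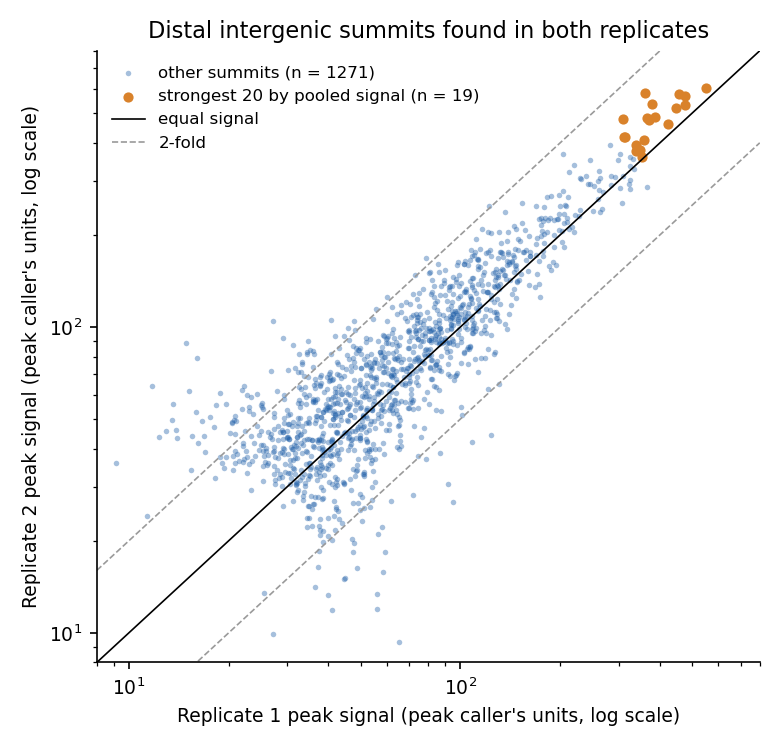
Signal of the 1290 distal intergenic summits found in both replicates, in the peak caller's units on log axes, with replicate 1 across and replicate 2 up; dashed lines mark a 2-fold difference. The 19 of the 20 strongest summits with a match in both lists, in orange, sit at the upper end of the diagonal, and scatter widens toward low signal, where the SD of the log2 ratio was 0.79 in the weakest 20% against 0.29 in the strongest 20%.

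Autosomal sequence that met the rule amounted to 19.4 Mb, or 23.5% of the autosomes. It held 70.5 summits per Mb, against 58.7 per Mb over whole autosomes and 55.1 per Mb over the rest of them. Against these values distal sequence was not short of sites. The rest of the autosomes pools promoter windows with introns and exons. The density of promoter-window sequence alone was not computed, so distal sequence is not compared here with sequence at gene starts. On the X chromosome the same rule kept 551 of 1425 summits (38.7%), at 96.3 per Mb of distal sequence.

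Among the autosomes, the density of distal sites ran from 50.6 per Mb on V (262 sites) and 57.5 on IV (289) to 79.5 on II (285), 88.7 on III (248) and 100.96 on I (285). All autosomal summits together had the same order, with 41.6 per Mb on V, 53.96 on IV, 62.1 on II, 69.5 on III and 74.7 on I. The order is thus not particular to distal sites. For distal sites, chromosome I had about the density of X, with 100.96 against 96.3 per Mb. Along the chromosomes, distal sites were densest in the middle. With each autosome divided into 5 equal parts, the densities over the 5 together were 48.5, 81.7, 108.7, 81.99 and 42.6 per Mb from the left end to the right. The middle part was the densest on I (140.7), II (135.3), IV (89.4) and V (93.8), while on III the neighbouring part was denser (122.9 against 100.7). The density of all autosomal summits in these parts was not computed. Median signal of distal sites differed little between chromosomes, from 116.3 on II to 123.7 on I.

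The orientation of the flanking genes separated dense from sparse intergenic sequence. A gap between neighbouring protein-coding bodies is divergent when both genes start at it, tandem when 1 starts and 1 ends there, and convergent when both end there. Divergent gaps held 518 sites (37.8%, exact 95% interval 35.3 to 40.5) in 28.8% of the distal bases, or 92.6 per Mb. Tandem gaps held 782 (57.1%) in 53.4% of the bases, or 75.4 per Mb. Convergent gaps held 68 (4.97%, 3.88 to 6.25) in 17.6% of the bases, or 19.9 per Mb, and 1 site lay at a chromosome end. The share in convergent gaps was below the share of bases by more than its counting error.

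Signal followed the same order with wide overlap: the median was 126.0 in divergent, 118.6 in tandem and 99.4 in convergent gaps. The order held in each replicate. Replicate 1 had medians of 63.5, 57.8 and 47.2, and replicate 2 had 74.0, 66.9 and 53.95. The share of convergent sites was 2.19% in the strongest 20% of sites and from 4.01% to 6.93% in the other 4.

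Density changed little with distance upstream, out to 10000 bp. Measured upstream of the nearer flanking start, density was 86.1 per Mb at 1000 to 1500 bp, 83.6 at 1500 to 2000 bp, 83.7 at 2000 to 3000 bp, 87.1 at 3000 to 4000 bp and 87.2 at 4000 to 5000 bp. It was 79.1 per Mb from 5000 to 10000 bp and 54.1 beyond. Measured past the nearer flanking 3′ end, density lay between 51.8 and 68.1 per Mb up to 5000 bp and was 79.9 from 5000 to 10000 bp. This measure counts tandem gaps a second time and includes the convergent gaps. In convergent gaps alone it lay between 7.47 and 27.3 per Mb up to 5000 bp, against 75.4 per Mb in tandem gaps as a whole. The lower values past 3′ ends thus include the sparse convergent gaps, and tandem gaps alone were not divided by distance. The nearest flanking end was a 5′ end for 824 sites (60.2%, 57.5 to 62.8), against 48.4% of the bases.

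The median distance to the nearest protein-coding 5′ end was 2577 bp, with quartiles of 1593 and 4049 bp and a maximum of 19779 bp. Over all bases that met the rule it was 2645 bp, so the sites lay about as far from gene starts as the sequence available to them. More than 5000 bp from any start lay 216 sites (15.8%, 13.9 to 17.8), against 19.95% of bases. At the edge of the rule, the 51 sites between 1000 and 1100 bp upstream had signals from 59.5 to 913.1 around a median of 134.7, and the 63 summits between 900 and 1000 bp upstream, just inside the promoter window, had 59.7 to 1170 around 145.7.

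**Figure D2:**
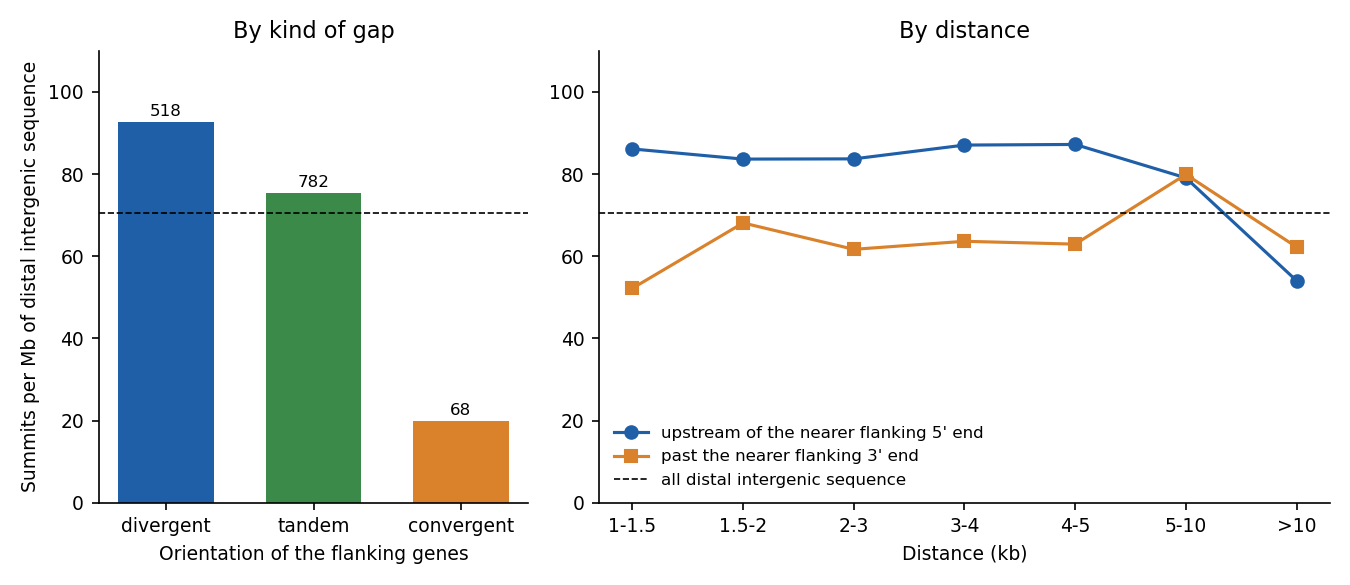
Left, distal intergenic summits per Mb of distal intergenic sequence in gaps between divergent, tandem and convergent genes, with the number of summits above each bar and the density over all distal sequence, 70.5 per Mb, dashed. Right, density against distance in kb upstream of the nearer flanking 5′ end (circles) or past the nearer flanking 3′ end (squares, shown from 1 kb, convergent gaps included). The upstream line stays between 79.1 and 87.2 per Mb out to 10 kb.

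The site farthest from any protein-coding gene body lay 19517 bp upstream of jac-1, which encodes a p120-catenin, and 20806 bp past the 3′ end of the gene on its other side, on chromosome IV. Its signal was 73.2 (39.9 and 39.7). It was 1 of 4 sites in that gap among the 5 farthest. The others had signals of 403.7 (180.5 and 226.4), 202.5 (93.3 and 105.6) and 162.5 (87.1 and 80.1), at 20819, 22018 and 22227 bp upstream of jac-1. The fifth of these sites lay 13785 bp upstream of zfh-2.

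Most gaps held no distal site and a few held many. Of 7309 gaps with distal sequence, 822 (11.2%) held at least 1 site. A single site was found in 534 of them, a pair in 157 and 3 or more in 131, and these last held 521 of the 1369 sites. Density rose from 45.5 per Mb in gaps up to 2500 bp to 84.2 per Mb in gaps of 5000 to 10000 bp, and was 42.2 per Mb in gaps over 20000 bp. When sites within 2000 bp of one another were chained, 772 stood alone, 151 pairs held 302, 50 triples held 150 and 32 larger groups held 145. Chained sites were 43.6% of the total. Their median signal was 120.6 in pairs, 119.3 in triples and 128.3 in larger groups, against 118.5 for single sites. Chained sites were 51.5% of the strongest 20% of sites and from 39.2% to 45.3% of the other 4 groups by signal. The median step between neighbouring sites was 19442 bp and the shortest 199 bp.

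The gap upstream of zfh-2 held more sites than any other. It spans 26998 bp of chromosome I, from 776370 to 803367, between the end of T06A4.1 and the start of zfh-2, and it held 15 sites from 1869 to 23203 bp upstream of zfh-2. Their pooled signals ran from 62.7 to 1006 around a median of 175.7. Replicate 1 gave 24.3 to 474.8 (median 92.8) and replicate 2 gave 28.9 to 531.2 (median 92.2), with all 15 found in each. Of these, 3 were among the 20 strongest of all distal sites. The summit 8936 bp upstream had a signal of 1006 (474.8 and 531.2), that at 1869 bp had 836.8 (371.1 and 474.9) and that at 15209 bp had 713.2 (352.1 and 358.8). The other 12 had signals of at most 287.6. GAGAGA was present at 6 of the 15, among them the 3 strongest.

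The next fullest gap lay between the end of snt-1, the synaptotagmin gene, and the start of egl-27, which encodes a chromatin factor of embryonic patterning. Its 18574 bp on chromosome II, from 6816434 to 6835007, held 11 sites with signals from 70.7 to 325.3 around a median of 131.3. They lay from 1328 to 17489 bp upstream of egl-27. Replicate 1 held all 11 (33.2 to 123.2, median 53.1) and replicate 2 held 10 (30.002 to 204.5, median 79.9). The strongest, 9082 bp upstream of egl-27, had 121.0 and 204.5. No site in this gap reached the level of the 3 strongest upstream of zfh-2, and 6 of the 11 lay within 200 bp of an ncRNA gene, against 3 of 15 there.

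**Figure D3:**
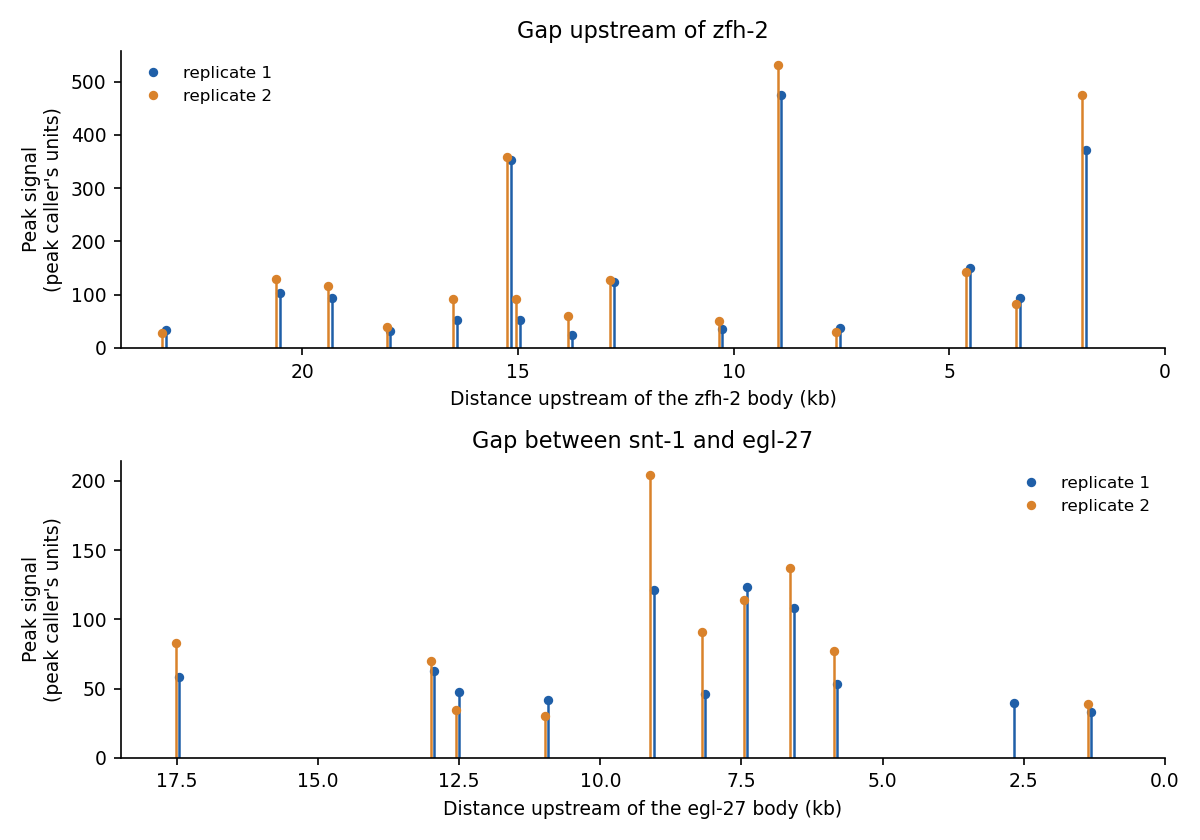
Peak signal in replicate 1 (blue) and replicate 2 (orange), in the peak caller's units, of each distal intergenic summit in the gaps upstream of zfh-2 (15 summits) and of egl-27 (11 summits), against distance in kb upstream of the gene body; pairs of stems are shifted slightly apart for legibility. In both replicates the zfh-2 gap shows 3 summits of 352.1 or more among 12 lower ones, and the egl-27 gap shows lower, more even signals.

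Further gaps with many sites were those between F11A6.16 and kpc-1 (8 sites, 64.002 to 409.0), rho-1 and zip-7 (8 sites, 90.2 to 460.6), F52A8.3 and glb-18 (7), gpb-1 and F44E5.4 (7), and T28D6.7 and T28D6.4 (7). Of groups chained at 2000 bp, the tightest of the 5 with most sites lay between gpb-1, a G protein beta subunit gene, and F44E5.4, an Hsp70-family gene, with 6 sites in 3941 bp and signals from 77.4 to 200.3. Between hmr-1, the classical cadherin gene, and clec-93, 6 sites spanned 4237 bp with signals from 96.2 to 424.7, and all 6 were found in both replicates. Upstream of marc-4, 5 sites spanned 4499 bp, with signals from 58.9 to 731.4.

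For the genes on either side, a gene was counted as occupied when a gap adjoining its body held a distal site. Of 11063 autosomal protein-coding genes with distal sequence beside them, 1566 (14.2%) were occupied. Genes with longer adjoining sequence have more room for a site, so the density in that sequence is given beside each share, to be read against 70.5 per Mb overall. A site counts for both its flanks, so the gene named can be the farther of them. For example, the strongest sites given for npax-1, die-1, unc-103, ins-21 and pat-2 lay nearer to the start of another gene. Position on the chromosomes, with which density varied, was not taken into account in these densities. Some genes stand in more than 1 list. The lists were chosen with results of these data known, and no test was made on them.

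Of the 19 lists, those of pan-neuronal genes and of axon guidance and neuronal adhesion had the most distal sites for their sequence. Other lists of nervous system genes were less dense. Transmitter and peptide receptor genes had 88.2 per Mb, neuropeptide genes 43.3 and chemoreceptor genes 16.7. Of 24 pan-neuronal genes, 17 were occupied (70.8%), with 44 sites at 350.2 per Mb. Among them was snt-1 with 12 sites, of which 11 lay past its 3′ end in the gap it shares with egl-27. Others were unc-13, a gene of presynaptic release (strongest site 356.4, 189.7 and 163.2 in the replicates, 4676 bp upstream), egl-3, a gene of neuropeptide processing (318.1, 144.1 and 172.2, 1272 bp upstream) and unc-76 (280.7, 131.3 and 152.0, 1956 bp upstream). Of 43 genes of axon guidance and neuronal adhesion, 25 were occupied (58.1%), with 72 sites at 231.1 per Mb. Here cam-1, a Ror receptor tyrosine kinase gene, had 4 sites, the strongest 1624 bp upstream with 587.4 (303.1 and 285.2). The L1-type adhesion gene lad-2 had 3, the strongest 4138 bp upstream with 575.7 (283.8 and 291.2). At madd-2 the strongest of 4 lay 153 bp past the 3′ end, with 611.1 (324.3 and 282.8). The immunoglobulin-domain gene zig-7 had 1, 3454 bp upstream, with 462.5 (208.8 and 249.4).

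Transcription factor families spanned a wide range of densities. Of 63 genes in the homeobox list 23 were occupied (36.5%), with 62 sites at 147.0 per Mb. Beside zfh-2 these included ceh-58 (5 sites, strongest 734.0 with 311.9 and 417.9) and the paired-class gene unc-42. The latter had 2 sites past its 3′ end (strongest 407.4 with 198.3 and 206.9), which were summits with the same peak boundaries. The list also held npax-1 (3 sites, strongest 299.6 with 122.97 and 178.5). Of 22 C2H2 zinc finger genes 6 were occupied, with 18 sites at 104.1 per Mb, among them sem-4 (6 sites, strongest 297.6 with 174.2 and 125.3), zag-1 (5 sites, 266.9 with 102.6 and 161.1), egl-46 and ztf-6. Of 24 bHLH genes 5 were occupied, with 5 sites at 28.02 per Mb, the strongest 1997 bp upstream of hif-1, the hypoxia-inducible factor gene (418.8, with 197.6 and 225.4). Nuclear hormone receptor genes had a lower share than all genes, 15 of 183 (8.20%), with 20 sites at 28.1 per Mb. Of these, 7 adjoined nhr-258. Of 37 embryonic fate regulators 10 were occupied (27.03%), with 26 sites at 96.2 per Mb. Of these sites, 11 lay in the gap between snt-1 and egl-27, and without that gap the density was 59.3 per Mb, below that of all distal sequence. In this list unc-42 had the strongest site, followed by die-1 (342.5, 168.6 and 172.4, 16758 bp upstream), egl-27 and the Hox gene ceh-13 (260.9, 116.9 and 148.2, 760 bp past its 3′ end).

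Signalling and membrane genes lay between these. Of 21 genes of Wnt and TGF-beta ligands and receptors 8 were occupied (38.1%), with 18 sites at 148.8 per Mb and a median signal of 180.8. They included tig-3 (627.9, 324.7 and 302.1, 2412 bp upstream) and the Frizzled genes cfz-2 (5 sites, strongest 383.5 with 191.5 and 199.8) and mom-5 (299.5, 140.6 and 161.0, 1663 bp upstream). Of 40 potassium channel genes 11 were occupied, at 117.5 per Mb, led by unc-103 (4 sites, strongest 428.0 with 220.3 and 204.7). Of 76 genes of transmitter and peptide receptors 34 were occupied (44.7%), but in long adjoining sequence (median 9579 bp per gene), at 88.2 per Mb. Of 99 neuropeptide genes 15 were occupied (15.2%), at 43.3 per Mb, among them ins-21 (428.3, 179.2 and 246.5), nlp-40 (330.1, 154.7 and 175.8) and nlp-18. Of 31 muscle structure genes 9 were occupied (29.0%), at 140.9 per Mb. The strongest site lay 7623 bp upstream of the integrin gene pat-2 (603.8, 292.4 and 309.8) and only 1981 bp upstream of prx-19.

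Chemoreceptor, F-box and lectin genes, which form large families, had few sites for their sequence. Of 948 chemoreceptor genes 27 were occupied (2.85%), with 32 sites at 16.7 per Mb and a median signal of 92.5. Of 252 F-box, BATH and MATH genes 10 were occupied (3.97%), at 20.95 per Mb, and of 162 C-type lectin genes 10 (6.17%), at 48.6 per Mb. Of the 16 sites at lectin genes, 6 lay beside clec-93, and without that gap the density was 30.9 per Mb. Collagen genes were near the average, with 12 of 88 (13.6%) at 74.3 per Mb, the strongest 2452 bp upstream of col-108 (683.6, 325.5 and 359.9). Ribosomal protein genes (3 of 34, 8 sites) and histone genes (2 of 51, 4 sites) have little distal sequence, and their densities were 91.1 and 63.9 per Mb. Single gaps set both values: without the 5 sites beside rps-25 and the 3 beside hil-7 they were 40.2 and 19.004 per Mb. The strongest site of each list was in that gap, 5488 bp upstream of rps-25 (841.1, 365.3 and 481.8) and past the end of hil-7. The lists thus ran from 16.7 to 350.2 sites per Mb of adjoining distal sequence.

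Among 14 genes of the ces-1 pathway and cell death with distal sequence beside them, 3 were occupied (21.4%, exact 95% interval 4.66 to 50.8), with 3 sites at 55.7 per Mb. The interval includes the 14.2% of all such genes. These were ced-1, an engulfment receptor gene, with 549.4 (238.6 and 310.8) 3851 bp upstream, hlh-2, a bHLH partner gene, with 127.0 (31.3 and 87.6) 2896 bp upstream, and ces-2, a bZIP gene acting upstream of ces-1, with 60.6 (38.5 and 19.7) 2056 bp upstream. The last of these is close to the lower limit of the list. No distal site adjoined egl-1, the cell death activator gene. The nearest lay 4051 bp past its 3′ end, beyond a neighbouring gene, between rrsr-1 and F23B12.1, with 143.4 (69.2 and 73.4). For ces-1 itself the nearest distal site was 51009 bp away, and only 694 bp of distal sequence adjoin the gene. For hlh-3 and cdc-25.2 the nearest distal sites were 137803 and 95348 bp away. For dnj-11 and pig-1, beside which 0 bp met the rule, they were 11476 and 140304 bp away.

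Among the Hox genes, lin-39 had 1 site, with 79.9 (54.2 and 27.1), in the divergent gap it shares with ceh-13. This site lay 10787 bp upstream of lin-39 and nearer to ceh-13, 8241 bp upstream of it. No site adjoined mab-5 or egl-5, although 8991 and 24199 bp of distal sequence adjoin them. The nearest to either was a site between ZK652.8 and rpl-35 with 335.5 (151.7 and 191.0), 64912 bp from mab-5 and 31225 bp from egl-5.

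Many sites far from protein-coding starts lay at genes that make no protein. Within 200 bp of a gene annotated ncRNA, the class for non-coding RNAs placed in no narrower class, lay 233 sites (17.02%, exact 95% interval 15.1 to 19.1), against 4.07% of distal bases. The share of sites was 4.18 times that of bases. Of the 233, 111 lay inside the ncRNA gene. These sites adjoined 288 of the 1927 ncRNA genes that reach into distal sequence. Their median signal was 116.4, against 120.2 for other distal sites, so that they were no stronger. Density was highest just downstream of the ncRNA 5′ end. It was 110.7 per Mb from 500 to 200 bp upstream of that end, 333.6 in the last 100 bp before it, 431.1 and 441.4 in the first and next 100 bp after it, and 184.0 from 200 to 500 bp after it.

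Among the strongest sites at ncRNA genes, the summit by hil-7 printed above lay inside the 200 bp gene C01B10.49, 134 bp from its 5′ end. The summit by wrm-1 lay inside the 144 bp gene B0336.16, 63 bp from its 5′ end. The site nearest to zfh-2 lay 56 bp from Y73A3A.2. Each of the 3 was among the 20 strongest distal sites.

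Smaller classes had few sites each, and a site near genes of different classes counts in each of them. Within 200 bp of a snoRNA gene lay 12 sites (0.877%, 0.454 to 1.53), against 0.170% of bases, and of a tRNA gene 10 (0.730%, 0.351 to 1.34), against 0.189%. Both intervals lay above the share of bases. For lincRNA genes it was 21 (1.53%, 0.952 to 2.34, against 0.986%), and the interval for miRNA genes, with 5 sites (0.365%, 0.119 to 0.850, against 0.168%), also reached the share of bases. The strongest sites of these classes had signals of 212.7 (123.7 and 94.1) 33 bp before the snoRNA gene T19B4.8, 539.5 (245.9 and 293.2) 90 bp past a tRNA gene between T28D6.7 and T28D6.4, and 481.3 (204.5 and 278.4) inside linc-153. At miRNA genes the 3 strongest adjoined cel-mir-52 (229.7, 88.9 and 142.2), cel-mir-53 (184.8, 90.2 and 106.8) and cel-mir-51 (137.5, 70.5 and 66.5), all on chromosome IV and all of the mir-51 family, whose members share a seed. Those 3 lay in gaps between convergent protein-coding genes. The sites given for T19B4.8, linc-153 and cel-mir-52 also lay within 200 bp of an ncRNA gene and count in that class too.

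The snRNA class had 2 sites, both within 200 bp of sls-2.2, a gene of the spliced leader RNA that is joined to the downstream messages of operons. These are the pair of summits beside ins-13 described above, which share the same peak boundaries. Both also lay within 200 bp of an ncRNA gene. Antisense RNA genes had 2, both at C02F4.12 (175.1 and 131.6), and rRNA genes 0 of 1369, which allows a share of up to 0.269% (upper exact limit), against 0.0876% of bases. The summits of a snoRNA, a tRNA, a lincRNA and a miRNA site are printed here as examples of these classes, again as 101 bases of the plus strand. The snoRNA site, 121 bp before W03C9.9, lay at chrII:11960727-11960827 with a signal of 163.0 and the tRNA site, at WBGene00014536, at chrIII:11353740-11353840. The linc-153 site lay at chrV:11641606-11641706 and the cel-mir-52 site at chrIV:14034075-14034175.
W03C9.9: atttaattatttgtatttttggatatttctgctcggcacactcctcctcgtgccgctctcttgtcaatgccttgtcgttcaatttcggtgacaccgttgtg
WBGene00014536: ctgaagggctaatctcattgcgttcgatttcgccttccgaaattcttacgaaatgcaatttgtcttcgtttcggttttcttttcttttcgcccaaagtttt
linc-153: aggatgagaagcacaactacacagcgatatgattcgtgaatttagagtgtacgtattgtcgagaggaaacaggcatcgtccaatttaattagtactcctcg
cel-mir-52: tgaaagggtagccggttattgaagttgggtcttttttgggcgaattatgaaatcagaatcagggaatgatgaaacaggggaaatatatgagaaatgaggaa
None of these 4 windows held any of the motifs GAGAGA and GACGCA or the E-box CAGGTG, so none carries capitals. The W03C9.9 site ranked below the T19B4.8 site among snoRNA sites.

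Sites near piRNA genes and pseudogenes were fewer than the bases there. Within 200 bp of a piRNA gene lay 42 sites (3.07%, 2.22 to 4.12), against 7.88% of bases, and near a pseudogene 18 (1.31%, 0.781 to 2.07), against 14.5%. The strongest near a piRNA gene was the rps-25 site, 93 bp from 21ur-3140, and the strongest near a pseudogene had 486.0 (250.5 and 239.8). Soft-masked sequence, which marks repeats in the reference, covered 19.9% of the summits (17.9 to 22.2) and 41.2% of distal bases. The part of repeats and of ambiguous read placement in these low shares was not tested.

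**Figure D4:**
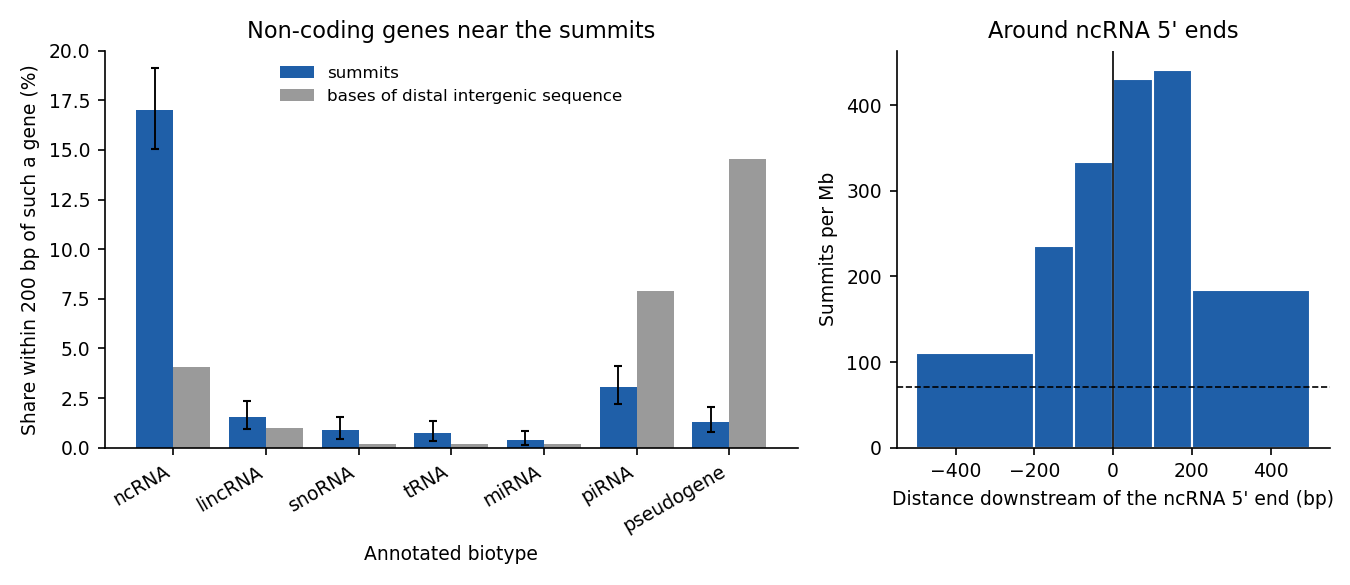
Left, share of the 1369 distal intergenic summits (blue, with exact 95% binomial intervals) and of distal intergenic bases (grey) within 200 bp of a gene of each annotated biotype. Right, summits per Mb of distal sequence by distance from ncRNA 5′ ends, with 70.5 per Mb dashed; the highest bars, 431.1 and 441.4 per Mb, cover the first 200 bp downstream of the 5′ end.

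The letters at the summits were compared with windows of the same 101 bases centred 500 bp to either side. The motifs GAGAGA and GACGCA were chosen after their counts at these summits had been seen, so their counts describe these sites and support no more. GAGAGA or its reverse complement was present within 50 bp of 417 summits (30.5%, exact 95% interval 28.03 to 32.97), against 69 and 60 of the left and right flanks (5.04% and 4.38%) and 5.56% of windows tiled over all autosomal distal sequence. At promoter-window summits the share was 21.97% (20.3 to 23.7), at intronic 23.8% (21.2 to 26.5) and at exonic 14.6% (9.15 to 21.6). The interval at distal summits lay above those of the other classes. GACGCA was present at 144 (10.5%, 8.94 to 12.3), against 29 and 25 of the flanks and 2.05% of tiled windows. It was more frequent at promoter-window summits, with 14.4% (12.98 to 15.9). Both motifs were present at 87 summits and either at 474 (34.6%).

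The Snail-type E-box behaved otherwise. CAGGTG or its reverse complement was present at 25 summits (1.83%, 1.19 to 2.68), against 28 and 34 of the flanks and 2.34% of tiled windows, which lies within the interval. The general E-box CANNTG, which includes CAGGTG, was present at 459 summits (33.5%, 31.0 to 36.1), against 26.1% and 27.98% of the flanks and 29.7% of tiles. CAGGTG was present at 2 of the strongest 20% of sites and at 4, 5, 8 and 6 of the following 4 groups, and at 0 of the 20 strongest. These matches are letters in a window and do not show which protein was bound.

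Sites with GAGAGA had higher signals, with a median of 137.1 against 110.3 without. Replicate 1 gave medians of 70.1 and 55.6, and replicate 2 gave 81.8 and 63.8. The share with GAGAGA fell from 43.4% of the strongest 20% to 29.9%, 30.4%, 24.5% and 24.1% of the others, and 11 of the 20 strongest held it. Sites with GACGCA had a median of 163.2, against 116.4 without. The interquartile ranges of signal with and without either motif overlapped. Summits were also richer in G and C than their surroundings, at 40.8% (SD 7.41 across sites), against 33.3% and 33.5% in the flanks and 34.4% over distal windows. The part of base composition in the motif counts was not tested.

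**Figure D5:**
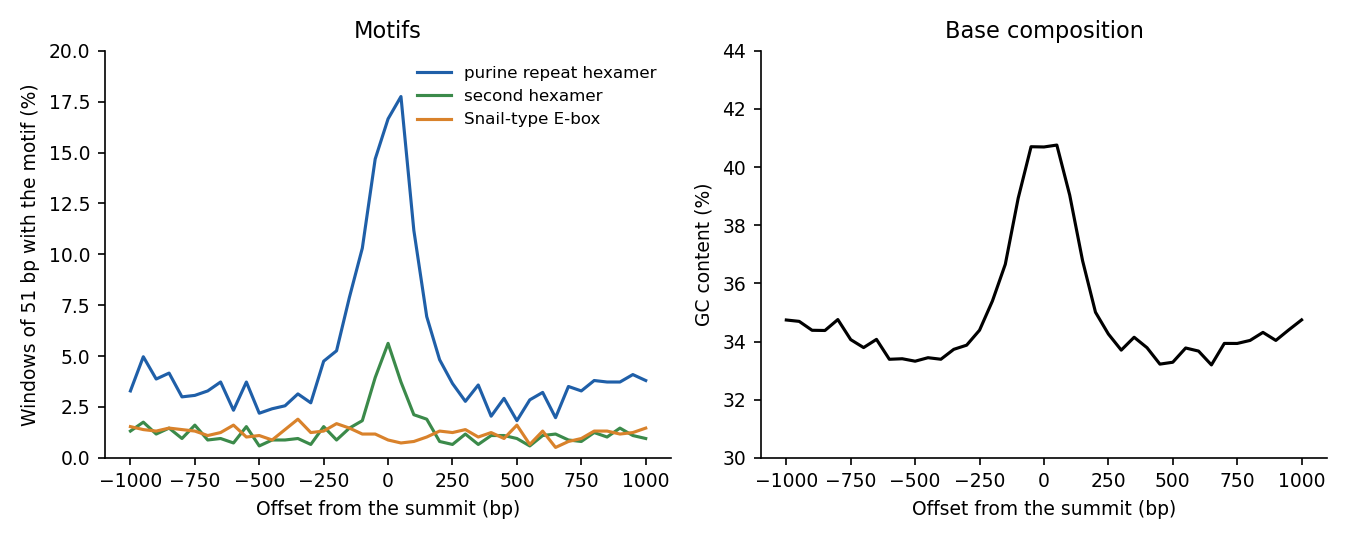
Left, share of distal intergenic summits with a motif within 25 bp of each offset from the summit, for the purine repeat hexamer (blue), the second hexamer of the text (green) and the Snail-type E-box (orange). Right, GC content at the same offsets; the purine repeat reaches 17.8% and GC content 40.8% at 50 bp from the summit, and the E-box stays between 0.511% and 1.90% throughout.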

How the data were processed

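ChIP-seq peak lists of 2 biological replicates of 1 strain were used as deposited, on ce11 coordinates, counted from 1 in the text. Per the notes deposited with the libraries, a relaxed list of 30000 entries was made for each replicate and for the pooled replicates, and a thresholded list was derived through IDR, a test of how well peaks repeat between replicates. The aligner and peak caller were not given in the sources used here. Peak signal is used as deposited by the authors, in the peak caller's units, and the depth behind it is unknown. The thresholded list gave the sites, and the replicate lists the nearest entry within 100 bp.

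Summits were placed on the WBcel235 annotation of Ensembl release 115 with Python 3.11.15, numpy 2.4.6, pandas 2.3.3 and scipy 1.17.1. Densities and shares of bases were counted over every base that met the same rule, without resampling. Intervals are exact (Clopper-Pearson) at 95%, treat sites as independent and cover counting error only. All sites come from the same 2 libraries, so no p-value was computed. The placing of summits by the rule and the matching between lists were tested on simulated positions and returned the planted values. The distances, gap kinds, motif counts and gene occupancy had no such test.

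The sites, 19 gene lists and motifs were chosen with earlier results of these data known. Genes named are those nearest the 20 strongest sites, up to 4 occupied genes a list and up to 3 a non-coding biotype by strongest site, flanks of the 5 largest groups and 5 farthest sites, and egl-5, mab-5, lin-39, unc-42, cdc-25.2, pig-1, dnj-11, hlh-3, hlh-2, egl-1, ces-2 and ces-1. Flanks of the next fullest gaps were named after their values were seen. Sites on X and on the mitochondrial genome were left out, X counts apart.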

Additional observations from a re-analysis of the deposited data

How the results depend on the processing

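Each of 10 summary values was recomputed under the alternatives that apply to it, 80 values in all. Of these, 54 stayed within 1.5 times for a number of summits, or within the counting interval or replicate spread for other values. With a promoter window from 500 bp upstream, 1673 summits were distal, 34.5% of autosomal summits, and the median distance to a 5′ end was 2076 bp. With one from 2000 bp upstream to 500 bp downstream 936 were distal, 19.3%, at a median of 3370 bp, a density 1.12 times that of the autosomes and 6.41% in convergent gaps. The strongest 20% of peaks left 273 distal summits, with a median signal of 315.3, 99.6% in both replicates, a median distance of 2750 bp, 2.20% in convergent gaps, 18.3% near another distal summit and 0.733% with CAGGTG. From either replicate alone, with as many peaks, the median signal was 57.6 to 67.2 and the share matched in the other list 88.95% to 90.7%. Matching within 50 or 200 bp gave 78.7% or 98.9% in both replicates. Non-coding genes other than pseudogenes lay within 200 bp of 21.99% of summits, within 100 bp of 16.9%, within 500 bp of 29.1%, and within 200 bp of 19.4% with piRNA genes left out. Another distal summit lay within 1000 bp of 23.7% and within 5000 bp of 57.999%. CAGGTG lay within 25 bp of 0.877% and within 100 bp of 3.94%. By definition, a wider window for matches, non-coding genes, neighbours or the motif cannot lower a share. Nor can keeping only the strongest peaks lower the median signal, or a wider promoter window raise the number of distal summits. Keeping only the strongest peaks also takes away neighbours, so the 18.3% does not describe how clustered strong sites are. With all distal sites kept as neighbours, 51.5% of the strongest 20% of distal sites were chained. The cause of the other shifts was not tested. Leaving out summits within 200 bp of a stronger one, chosen after seeing the data, moved no value beyond those limits. Leaving the fullest gap out of each gene list was also chosen after seeing the data, and the report gives it where it moved a density by over 1.5 times. No paired analysis was possible because both replicates belong to 1 group. The fold enrichment over control and the depth are unknown, so weak sites cannot be told from background by their signal.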
